A study of Saccharomyces cerevisiae with 4 samples.

Results

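The 51 small nucleolar RNAs (snoRNAs) described here are those that budding yeast transcribes from a gene of its own. They were chosen by name from 7126 features, as those whose name begins with snR, after the spliceosomal small nuclear RNAs, the 8 snoRNAs encoded in introns and the 17 made from polycistronic transcripts were left out. Of the 51, 27 belong to the H/ACA class and 24 to the C/D class. The rule used names and no measured value, but it was set with earlier results of these data known. RNA of Saccharomyces cerevisiae was sequenced from 2 dbp2null and 2 wild-type libraries to compare cells with and without the DEAD-box RNA helicase Dbp2, in a series whose title also names non-coding RNAs, R-loops and the helicase Sen1. The dbp2null strain, BTY115, carries dbp2::KanMx with ura3Δ0, leu2Δ0 and his3Δ0, is TRP1 and met-, and also has lysΔ. The wild-type strain carries met15Δ0, his3Δ1, ura3Δ0 and leu2Δ0. Both are MATa and were grown in YPD at 30 °C to an OD600 near 0.4. Because their marker genes differ, the loss of DBP2 and the strain background cannot be told apart. Ribosomal RNA was removed from total RNA, and, per the labels' protocols, ethanol precipitation and silica columns took the place of beads so that short RNAs stayed in the libraries. Each genotype's second library is a biological replicate, in the words of the series' design. Levels are FPKM, fragments scaled by feature length and by how many fragments mapped in each library.

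snoRNAs guide chemical changes in ribosomal RNA (rRNA). A C/D snoRNA pairs with rRNA just upstream of its D or D′ box and directs 2′-O-methylation of the base that pairs at the fifth position before that box, carried out by the protein Nop1. An H/ACA snoRNA folds into hairpins whose pockets place a uridine for conversion to pseudouridine by Cbf5, and ends with an ACA box close to its 3′ end. A few members of both classes act in cutting the rRNA precursor and in its folding. Nearly all the genes are read by RNA polymerase II, and their transcripts end by way of Nrd1, Nab3 and the helicase Sen1, after which the nuclear exosome trims the 3′ end. The exception among the members is snR52, which RNA polymerase III transcribes.

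The sequences of 5 C/D snoRNAs show the parts that do this work. The first 4 are the C/D members with the lowest log2 fold changes, and snR66 is the member with the highest level in wild type. Capitals mark the C box TGATGA, the bases that pair with the annotated rRNA site, the 4 bases that begin 5 bases downstream of the pairing base (the D or D′ box position) and the last CTGA. In snR79 and snR66 the guide runs into the box.
snR71: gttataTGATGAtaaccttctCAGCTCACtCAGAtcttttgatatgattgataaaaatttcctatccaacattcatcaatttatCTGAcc
snR79: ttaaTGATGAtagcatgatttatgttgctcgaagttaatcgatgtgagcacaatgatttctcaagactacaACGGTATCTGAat
snR65: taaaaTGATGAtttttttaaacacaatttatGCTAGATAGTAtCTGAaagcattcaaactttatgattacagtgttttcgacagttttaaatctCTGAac
snR56: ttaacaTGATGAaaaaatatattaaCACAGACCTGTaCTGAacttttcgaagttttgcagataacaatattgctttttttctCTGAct
snR66: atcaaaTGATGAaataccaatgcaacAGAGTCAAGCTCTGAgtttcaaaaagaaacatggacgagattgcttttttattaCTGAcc
These are RefSeq sequences of the R64 assembly (sacCer3), written 5′ to 3′ on the gene's strand, for snR71 at chrVIII:411228-411317 (plus), snR79 at chrXII:348427-348510 (minus), snR65 at chrIII:177183-177282 (plus), snR56 at chrII:88190-88277 (plus) and snR66 at chrXIV:586090-586175 (plus). snR71 is annotated to guide methylation of 25S rRNA at A2946, snR79 of 18S rRNA at C1007, snR65 of 25S rRNA at U2347, snR56 of 18S rRNA at G1428 and snR66 of 25S rRNA at U2417. All 24 C/D members hold a CTGA and 21 hold TGATGA. For 20 of them the annotation names 26 rRNA sites. The reference rRNA has the named base at all 26, and the longest run of Watson-Crick pairing across a site was 5 to 14 bases, with a median of 11. At 16 of the 26 sites a CTGA begins 5 bases downstream of the pairing base.

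The H/ACA members have no such linear guide, since their pairing is split between 2 arms of a pocket. 3 of the 5 with the highest log2 fold changes are printed, with the ACA that stands 3 bases before the annotated end in capitals.
snR85: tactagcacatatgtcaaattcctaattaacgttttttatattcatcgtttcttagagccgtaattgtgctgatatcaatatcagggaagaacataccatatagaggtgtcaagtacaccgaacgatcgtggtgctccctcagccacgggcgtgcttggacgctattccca
snR34: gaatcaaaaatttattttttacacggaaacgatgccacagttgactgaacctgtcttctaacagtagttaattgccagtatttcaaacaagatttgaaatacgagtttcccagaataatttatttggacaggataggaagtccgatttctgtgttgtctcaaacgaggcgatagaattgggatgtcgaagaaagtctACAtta
snR161: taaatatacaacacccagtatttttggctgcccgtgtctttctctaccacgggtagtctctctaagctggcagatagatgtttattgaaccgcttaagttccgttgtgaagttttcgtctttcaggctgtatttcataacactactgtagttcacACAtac
They lie at chrXIII:67768-67938 (minus, snR85), chrXII:899180-899382 (plus, snR34) and chrII:307185-307345 (minus, snR161) in R64. ACA stood at exactly that place in 13 of the 27 H/ACA members, and not in snR85, whose annotated end leaves no ACA there. Annotated lengths differed between the classes. H/ACA genes had a median length of 203 bases and reached 1004, and C/D genes had a median of 100.5 bases and ran from 84 to 490.

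The dbp2null libraries differed from each other over the whole series. FPKM summed to 50064500 and 3373070 in the dbp2null libraries, against 52886900 and 32243600 in wild type. The members made up 5.35% and 14.1% of those sums in dbp2null, against 1.69% and 3.58% in wild type. Their own sums were 2676620 and 474202 FPKM in dbp2null, against 895891 and 1154910 FPKM in wild type. The share of 14.1% in dbp2null replicate 2 thus went with the lowest member sum and the lowest total. Protein-coding features summed to 2408300 and 713610 FPKM in dbp2null, against 2293580 and 2343470 FPKM in wild type. The medians over tested features were closer, at 40.0 and 38.9 FPKM in dbp2null, against 32.6 and 29.6 FPKM in wild type. Nuclear tRNAs also parted the dbp2null libraries, with a median log2 ratio to wild type of 0.10 in replicate 1 and -5.23 in replicate 2 over 273 tRNA features. DBP2 itself (YNL112W) read 2.90 and 1.03 FPKM in dbp2null, against 213 and 199 FPKM in wild type (log2 fold change -6.20, SE 0.35, limma adjusted p = 0.0225), and that call ended without wild-type replicate 1 (adjusted p = 0.0849), without replicate 2 (adjusted p = 0.1) and with a pseudocount of 0.1 (adjusted p = 0.064). The deposited values hold no counts, so the depth behind each is unknown and no counting interval can be given.

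None of the 51 snoRNAs passed the test between dbp2null and wild type. The C/D median was below the H/ACA median in every library, by more in both dbp2null libraries than in wild type. All 51 were above 0 in every library and passed the filter on low values. The members' median level was 12475 and 2571 FPKM in dbp2null replicates 1 and 2, against 8066 and 9797 FPKM in wild-type replicates 1 and 2. The dbp2null libraries therefore lay on either side of both wild-type libraries. For the H/ACA class the medians were 17241 and 4586 FPKM in dbp2null, against 9221 and 11070 FPKM in wild type. For the C/D class they were 6785 and 641 FPKM in dbp2null, against 7969 and 8915 FPKM in wild type. The H/ACA median exceeded the C/D median by 1.43 and 2.84 on the log2 scale in the dbp2null libraries, against 0.21 and 0.32 in wild type, so both dbp2null libraries showed the wider gap. Taken member by member, the classes were closer in dbp2null replicate 1, with median log2 ratios to wild type of 0.74 (H/ACA) and 0.15 (C/D). There 22 of 27 H/ACA and 13 of 24 C/D members had a positive ratio. In replicate 2 the medians were -0.99 and -3.77.

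**Figure D1:**
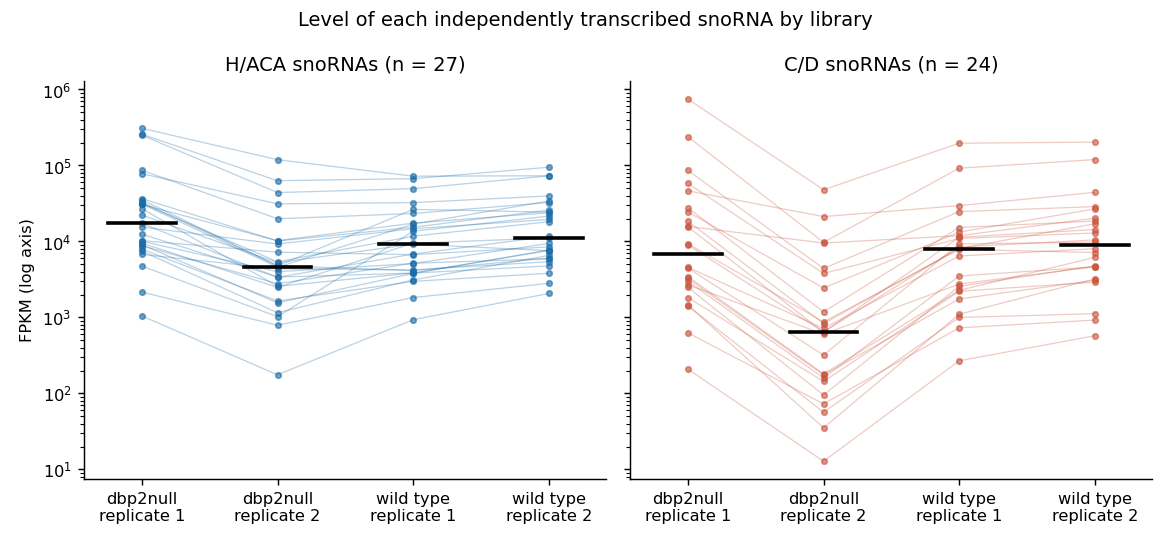
FPKM of each snoRNA (log axis) in dbp2null replicates 1 and 2 and wild-type replicates 1 and 2, with the 27 H/ACA members in the left panel and the 24 C/D members in the right. Thin lines join 1 snoRNA across libraries and black bars are medians. The C/D median is 641 FPKM in dbp2null replicate 2, while the other libraries hold C/D medians of 6785 to 8915 FPKM.

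Levels were compared as log2(FPKM + 1) with limma and Benjamini-Hochberg adjustment over all 6781 tested features, and a feature was called at an adjusted p below 0.05. By that rule 0 of the 51 snoRNAs were called, where 1.19% of all tested features were. At an unadjusted p below 0.05 the members again numbered 0, against 37.9% of tested features. Their adjusted p ran from 0.175 to 0.987. The standard error of their log2 fold changes had a median of 1.57, against 0.28 over all tested features. The smallest p of an exact permutation test on 2 against 2 libraries is 0.333. Every p and standard error here rests on the spread that limma pools over features of like level. A member's standard error is therefore not the spread of its own libraries alone. Without the mean-variance trend in that pooling, the lowest limma adjusted p among the members was 0.133. The median log2 fold change was -0.62 over the members (-0.13 for H/ACA, -1.76 for C/D), against 0.28 over all tested features. It was positive for 13 members, 12 of them H/ACA, where 62.3% of tested features were positive. The scaling set the sign for the H/ACA class, whose median became 1.52 with quantile normalization and 0.69 with protein-coding genes rescaled to one sum (1.08 over all features in that scaling), with 33 and 27 of the 51 members then positive. The C/D median stayed negative in both, at -0.45 and -0.94. In RNA from a whole culture, less of an RNA in every cell and its loss from some of the cells cannot be told apart.

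The split between the dbp2null libraries ran through most members. In dbp2null replicate 1, 32 members (21 H/ACA and 11 C/D) were above both wild-type libraries, where 66.6% of tested features were, and 9 were below both, where 22.3% were. In dbp2null replicate 2, 1 member was above both wild-type libraries, where 53.8% of tested features were, and 47 were below both (23 H/ACA and all 24 C/D), where 39.3% were. Each member was lower in dbp2null replicate 2 than in replicate 1, by 0.50 to 5.33 on the log2 scale with a median of 2.67. The same gap had a median of 0.08 over all tested features. Both dbp2null libraries lay above both wild-type libraries for 1 member, snR85 (49.8% of tested features), and below both for 9, snR8 and 8 C/D members (20.7% of tested features). Across the 51 members, which share a library and its depth within each point, Spearman's rho was 0.97 between the wild-type libraries, 0.89 between the dbp2null libraries, 0.89 for dbp2null replicate 1 with either wild-type library, and 0.83 and 0.80 for dbp2null replicate 2 with wild-type replicates 1 and 2.

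A second view set each library's members against their own median, which removes a shift common to all 51. That median is taken over both classes, so lower C/D members raise the H/ACA members. The high and low counts are therefore not separate results. The shares of tested features use the same centring and so carry the members' own shift. On that scale 16 members, 15 of them H/ACA, were higher in both dbp2null libraries than in both wild-type libraries, where 26.6% of tested features were. Another 16, of which 13 were C/D, were lower in both, where 6.64% were. The lone C/D member on the high side was snR48, which guides methylation of 25S rRNA and was named after its values were seen. Its dbp2null levels were 58034 and 3792 FPKM, against 10941 and 12923 FPKM in wild type. The H/ACA members on the low side numbered 3 (snR5, snR8 and snR32). The shift between classes was thus present in both dbp2null libraries, although they differed several-fold in level. The smallest p that an exact permutation of 2 against 2 libraries could give for it is 0.333.

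Among the C/D methylation guides, the printed snR71, snR79, snR65 and snR56 had the lowest fold changes. snR71 gave 1459 and 35.2 FPKM in dbp2null, against 1101 and 3212 FPKM in wild type. Only dbp2null replicate 2 was below the wild-type range (log2 fold change -3.03, SE 1.90, limma adjusted p = 0.300). For snR79 the levels were 4462 and 319 FPKM in dbp2null, against 9277 and 9797 FPKM in wild type. Here both dbp2null libraries were below both wild-type libraries (-3.00, SE 1.54, adjusted p = 0.224). snR65 was the least abundant member in wild type, with 209 and 12.8 FPKM in dbp2null, against 269 and 574 FPKM in wild type (-2.87, SE 1.37, adjusted p = 0.199). Its dbp2null values also lay below the wild-type range, replicate 1 only slightly. snR56 gave 2482 and 95.3 FPKM in dbp2null, against 2567 and 4772 FPKM in wild type (-2.84, SE 1.71, adjusted p = 0.282), and dbp2null replicate 1 was again just under the lower wild-type value.

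The 2 most abundant C/D guides had 1 dbp2null library above and 1 below the wild-type range. snR66 gave 746610 and 47928 FPKM in dbp2null, against 196286 and 203231 FPKM in wild type. The dbp2null values lay on either side of a narrow wild-type range (log2 fold change -0.08, SE 2.95, adjusted p = 0.987). snR39B, a guide for 25S rRNA whose gene lies upstream of RPL7A, gave 238494 and 9739 FPKM in dbp2null, against 92048 and 119643 FPKM in wild type (-1.12, SE 2.57, adjusted p = 0.763). Its dbp2null values were likewise above and below those of wild type.

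The C/D class also holds members with another polymerase, another kind of target or a use as a model gene. snR52, the RNA polymerase III transcript, gave 2995 and 159 FPKM in dbp2null, against 3508 and 4628 FPKM in wild type (log2 fold change -2.54, SE 1.57, adjusted p = 0.294). Both dbp2null values were below the wild-type range. snR13, a classical model for termination of snoRNA transcripts, gave 3452 and 180 FPKM in dbp2null, against 2266 and 6192 FPKM in wild type, with dbp2null replicate 1 inside the wild-type range (-2.24, SE 1.65, adjusted p = 0.364). snR45 and snR4 direct acetylation of cytosines in 18S rRNA by Kre33. snR45 gave 4566 and 716 FPKM in dbp2null, against 6442 and 8033 FPKM in wild type (-1.99, SE 1.28, adjusted p = 0.309), both dbp2null values being lower. For snR4, with 24423 and 2439 FPKM in dbp2null against 13290 and 26774 FPKM in wild type (-1.29, SE 1.74, adjusted p = 0.598), the groups overlapped.

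The U3 copies and snR30 act in rRNA precursor processing, and their dbp2null libraries lay closer together than those of most members. U3, the core RNA of the small-subunit processome, is encoded by snR17a and snR17b. snR17a gave 46383 and 21237 FPKM in dbp2null, against 29651 and 44245 FPKM in wild type (log2 fold change -0.21, SE 1.77, adjusted p = 0.940). snR17b gave 15745 and 9539 FPKM in dbp2null, against 11914 and 20236 FPKM in wild type (-0.34, SE 1.40, adjusted p = 0.868). The groups overlapped for both copies. The ratio of snR17a to snR17b was 2.95 and 2.23 in dbp2null, against 2.49 and 2.19 in wild type. The copies are near-identical, so reads may be shared between them and the ratio is uncertain. The annotated snR17a also overlaps IRC13, which is listed at 0 in all 4 libraries. snR30, an essential H/ACA RNA needed for release of 18S rRNA, gave 15473 and 9261 FPKM in dbp2null, against 14696 and 19493 FPKM in wild type (-0.50, SE 1.40, adjusted p = 0.802). Their annotated genes are among the longer ones, at 490 (snR17a), 462 (snR17b) and 606 bases (snR30). These are spans of the annotated genes, and lengths of the mature RNAs were not used.

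snR10 acts in processing and as a pseudouridylation guide. It gave 257717 and 63021 FPKM in dbp2null, against 67071 and 94852 FPKM in wild type (log2 fold change 0.68, SE 2.36, adjusted p = 0.843). Its dbp2null libraries lay above and just below the wild-type range. Its gene overlaps YGL088W on the same strand, which was listed at 0 and 21483 FPKM in dbp2null, against 8874 and 10008 FPKM in wild type. How reads were divided between these overlapping features is not known, so the level of snR10 is uncertain.

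Among the H/ACA pseudouridylation guides, the high end of the fold changes was made by dbp2null replicate 1. snR85 gave 308298 and 119226 FPKM in dbp2null, against 72277 and 73219 FPKM in wild type (log2 fold change 1.40, SE 2.39, adjusted p = 0.682). It was the member whose dbp2null values were both higher. snR80 gave 33012 and 4799 FPKM in dbp2null, against 4120 and 6044 FPKM in wild type (1.33, SE 1.49, adjusted p = 0.528). Here dbp2null replicate 2 sat inside the wild-type range. snR34 gave 250081 and 43973 FPKM in dbp2null, against 49540 and 73072 FPKM in wild type (0.80, SE 2.29, adjusted p = 0.806), and snR161, the shortest H/ACA member, gave 26997 and 2571 FPKM in dbp2null, against 3848 and 7581 FPKM in wild type (0.63, SE 1.60, adjusted p = 0.785). In both, replicate 1 of dbp2null was above and replicate 2 below the wild-type range. snR33, upstream of CTO1, showed it too, with 86560 and 19894 FPKM in dbp2null, against 23333 and 32539 FPKM in wild type (0.59, SE 1.86, adjusted p = 0.825).

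Of the remaining named H/ACA members, snR86 and snR8 mark ends of the class, in length and in fold change, and snR81 was named for its role. snR81, which also guides pseudouridylation of the U2 spliceosomal RNA, gave 7896 and 1647 FPKM in dbp2null, against 2983 and 3812 FPKM in wild type (log2 fold change 0.10, SE 1.18, adjusted p = 0.957). snR86, the longest member, gave 10247 and 7225 FPKM in dbp2null, against 6699 and 8484 FPKM in wild type (0.19, SE 1.18, adjusted p = 0.915). It had the closest pair of dbp2null values of the members named here. snR8, a guide for 25S rRNA, stood apart at the low end, with 4750 and 1022 FPKM in dbp2null, against 13631 and 21544 FPKM in wild type (-2.96, SE 1.32, adjusted p = 0.175). Both its dbp2null libraries were below both wild-type libraries, and its adjusted p was the lowest of the 51. The members not named had log2 fold changes between those of snR71 and snR85.

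**Figure D2:**
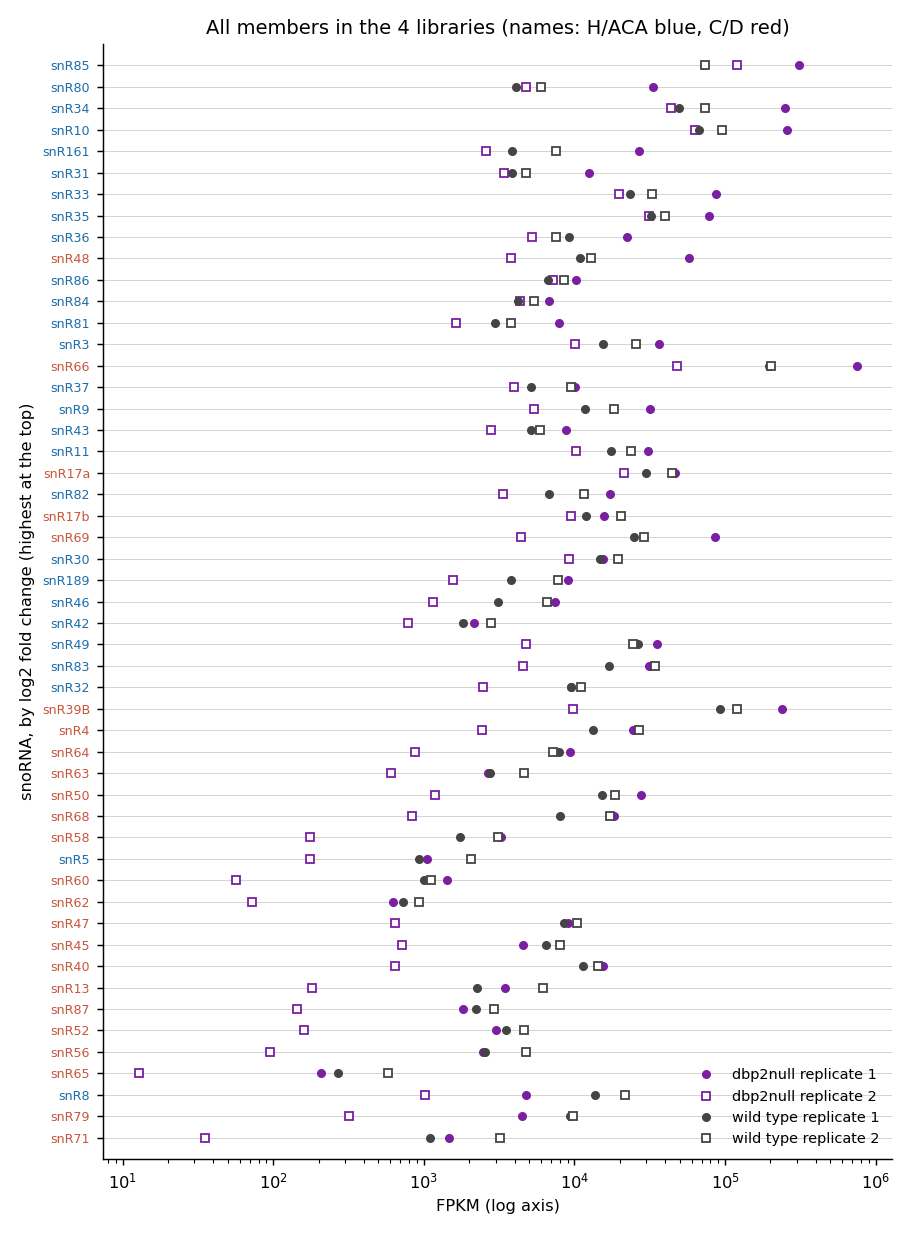
FPKM (log axis) of all 51 snoRNAs in dbp2null replicates 1 and 2 (purple) and wild-type replicates 1 and 2 (grey), ordered by log2 fold change from snR85 at the top (1.40) to snR71 at the bottom (-3.03). Each point is 1 library, H/ACA names are blue and C/D names red. The open purple squares, dbp2null replicate 2, lie left of both grey marks for 47 members.

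The gap between the dbp2null libraries followed annotated gene length, called length below. Across the 51 members, the difference between dbp2null replicates 1 and 2 had a Spearman's rho of -0.88 with length. Within the classes it was -0.60 (27 H/ACA) and -0.59 (24 C/D), and -0.47 for the 22 C/D members other than U3. For H/ACA, length had a rho of -0.48 with the ratio to wild type in replicate 1 and 0.14 in replicate 2. For C/D these values were 0.06 and 0.58. The points share the same 2 libraries, so these are descriptions. Shorter snoRNAs were the further apart. For the 17 members under 120 bases, all C/D, the median log2 ratio to wild type was 0.29 in dbp2null replicate 1 and -3.87 in replicate 2. Protein-coding genes of that length, 33 in number, gave 0.61 and -2.83, so they too were low in replicate 2, though less so than the members. The 58 other tested features with a matched length in that class, which include the other short snoRNAs, gave 0.59 and -3.73. The tRNAs had no matched length and are not among them, and their median in replicate 2 was -5.23. The 16 members of 120 to 199 bases gave 0.73 and -1.88, against 0.98 and -1.63 over 89 protein-coding genes. From 200 to 299 bases, 10 members gave 1.03 and -0.99, against 0.71 and -1.31 over 155 protein-coding genes. The ratio in replicate 2 was thus higher in longer classes, among members and protein-coding genes alike. H/ACA members alone did not rise at each step. They gave -1.25, -0.99 and -1.52 from 120 to 199, 200 to 299 and 300 to 499 bases, and -0.50 from 500 to 999. For the 5 members of 300 to 499 bases the values were 0.36 and -0.80, against 0.48 and -0.30 over 586 protein-coding genes. At 1000 bases and more, snR86 gave 0.44 and -0.06, against 0.37 and 0.57 over 3588 protein-coding genes. The authors' length correction for features near the fragment length is not given in the sources used here.

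Length and class largely coincide, and only the class from 120 to 199 bases holds several of each. There, the 12 H/ACA members had median log2 ratios of 1.00 and -1.25 in dbp2null replicates 1 and 2, and the 4 C/D members 0.13 and -3.57. The median of the C/D members (snR13, snR68, snR45 and snR4) was thus lower in both libraries, a difference that was not tested. snR13 and snR68, at 124 and 136 bases, are shorter than every H/ACA member in that range of lengths. In replicate 1 the members of the classes overlapped. In replicate 2 only the H/ACA member snR8 lay among the C/D members, and the other H/ACA members lay above them. Among the 22 C/D members other than U3, the median log2 fold change was -1.91. The 2 U3 copies are the only C/D members whose annotated genes exceed 300 bases. They had median ratios of 0.19 and -0.74 in dbp2null replicates 1 and 2, beside 0.38 and -1.52 for 3 H/ACA members of 300 to 499 bases. snoRNAs made in other ways, nearly all of the C/D class and short, gave medians of 0.41 and -4.23 (8 intronic) and 0.36 and -4.15 (17 polycistronic), beside 0.15 and -3.77 for the 24 independent C/D members. The part of length in the difference between classes was not tested beyond these values.

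**Figure D3:**
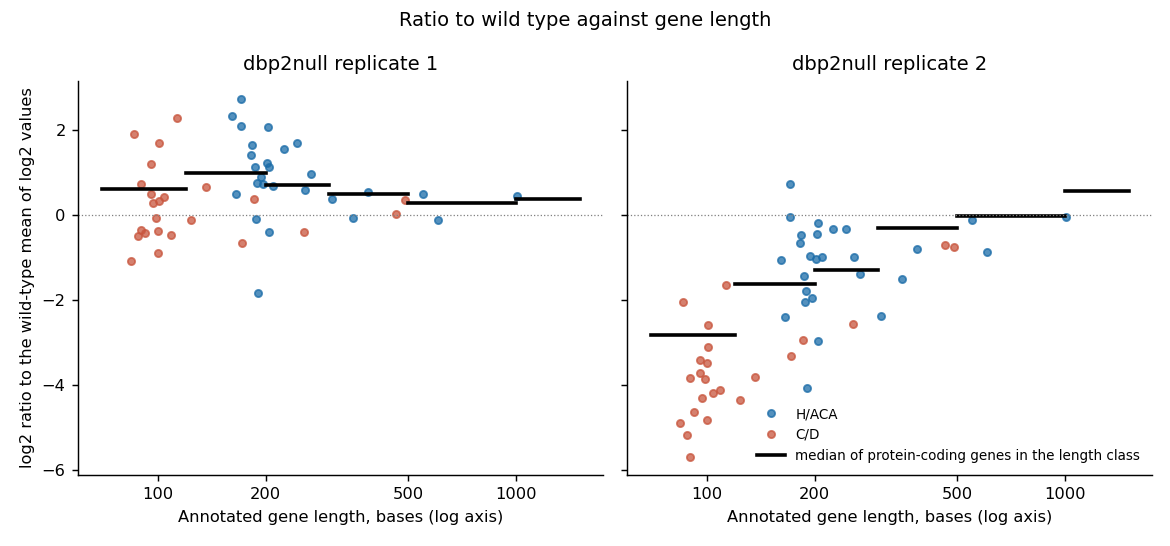
log2 ratio to the mean of the wild-type log2 values (vertical axis) against annotated gene length in bases (log axis) for dbp2null replicate 1 (left) and replicate 2 (right). Each point is 1 snoRNA (H/ACA blue, C/D red) and black bars are medians of protein-coding genes in each length class. In replicate 2 the class under 120 bases has a median of -3.87 for the members and -2.83 for protein-coding genes.

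Leaving out a dbp2null library changed the count of calls. Without dbp2null replicate 1, 26 of the 51 members were called lower (5 H/ACA and 21 C/D) and 0 higher, where 21.2% and 15.8% of all tested features were called in those directions. Without dbp2null replicate 2, 0 members were called (0.855% of tested features higher and 0.472% lower), and 11 had an unadjusted p below 0.05 (9 higher and 2 lower, where 24.5% and 8.63% of tested features were). The lone dbp2null library is in each case assumed to vary as the wild-type pair does. Any statement on the direction of the class as a whole therefore rests on which dbp2null library is read.

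Promoter and 3′ motifs of the genes, which the choice by name did not use, are described next. Motifs were counted on both strands from 250 bases before to 50 after the annotated start, in 51 member windows and in 6430 windows over all genes, whose starts are mostly coding starts and so lie further from transcription starts. TATAAA, the core of a TATA box, was found in 40 members (78.4%: 25 H/ACA and 15 C/D) and in 45.3% of all windows. ACCCTAA, bound by Tbf1, was in 5 members (9.8%) and 2.1% of all windows. TTACCCG, bound by Reb1, was in 8 members (15.7%, 7 of them H/ACA) and 6.9% of all windows. The Abf1 motif was in 4 members (7.8%) and 14.1% of windows, and the Rap1 motif in 0 members and 0.7% of windows. The window of snR13, which holds both a Tbf1 motif and TATAAA, is printed with those letters in capitals on either strand (chrIV:1402669-1402968, plus). The last match, TTTATA, is on the opposite strand and lies within the annotated snoRNA.
snR13 promoter: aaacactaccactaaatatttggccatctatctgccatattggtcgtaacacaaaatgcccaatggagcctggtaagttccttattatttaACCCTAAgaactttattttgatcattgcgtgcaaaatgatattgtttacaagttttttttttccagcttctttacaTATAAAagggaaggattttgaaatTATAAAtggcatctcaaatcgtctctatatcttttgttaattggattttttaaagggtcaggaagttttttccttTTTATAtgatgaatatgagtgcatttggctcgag

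In the 150 bases after the annotated 3′ end, on the sense strand, the DNA letters of the Nab3 motifs TCTT and CTTG were found after 51 (100%) and 44 members (86.3%), and after 66.5% and 34.8% of 6002 coding genes. The letters of the Nrd1 motifs GTAG and GTAA were found after 30 (58.8%) and 32 members (62.7%), and after 29.0% and 54.7% of coding genes. The mean number per window was 2.22 for TCTT and 1.59 for CTTG after members, against 1.23 and 0.43 after coding genes. The annotated ends of coding genes are mostly coding ends, so the windows compared are not alike. snR52, the RNA polymerase III transcript, is counted among the members. CTTG and TCTT can overlap by their letters, and a match is not by itself a binding site. These stretches are shown in capitals for snR13 and for snR60, a 25S rRNA methylation guide chosen because it lies upstream of the gene with the highest fold change in the next paragraph.
snR13 downstream: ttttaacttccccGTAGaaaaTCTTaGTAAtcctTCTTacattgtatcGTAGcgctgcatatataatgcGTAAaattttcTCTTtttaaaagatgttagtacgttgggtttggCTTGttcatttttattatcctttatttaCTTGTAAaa
snR60 downstream: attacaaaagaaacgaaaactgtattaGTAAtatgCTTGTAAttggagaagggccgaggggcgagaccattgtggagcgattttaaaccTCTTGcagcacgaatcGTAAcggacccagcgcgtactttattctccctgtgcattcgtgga
They cover chrIV:1403043-1403192 (plus) and chrX:348980-349129 (minus). The snR60 window holds 1 TCTT, 2 CTTG, 3 GTAA and no GTAG, and that of snR13 holds 3, 2, 3 and 2 of these. snR60 also overlaps the reading frame YJL047C-A on the same strand, so its reads may be divided between the features.

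Where a snoRNA transcript fails to end, RNA polymerase II can run into the next gene, so the genes downstream were compared. For 29 members the next gene on the same strand begins within 1000 bases. Among these genes is PMD1 after snR52, an RNA polymerase III transcript to which that reason does not apply. None of the 29 genes was called (background 0.973% higher and 0.221% lower), 8 had an unadjusted p below 0.05 (37.9% of tested features), and their median log2 fold change was 0.05. It was positive for 15 and negative for 14, where 62.3% of tested features were positive. Both dbp2null libraries lay above both wild-type libraries for 11 (49.8% of tested features) and below for 10 (20.7%). The highest was UBX6, the gene of a UBX-domain protein, 493 bases after snR60, with 38.5 and 47.2 FPKM in dbp2null, against 14.9 and 13.7 FPKM in wild type. The groups were far apart (log2 fold change 1.51, SE 0.19), and the adjusted p of 0.0513 missed the threshold by little and passed it with a pseudocount of 5 (0.0371, where 5.6% of tested features were called higher) or without dbp2null replicate 1 (0.0257). YDR042C, 399 bases after snR47, gave 19.7 and 14.8 FPKM in dbp2null, against 7.73 and 7.93 FPKM in wild type (1.04, SE 0.25, adjusted p = 0.0684). Its groups did not overlap either, though its sign turned under quantile normalization (-0.09).

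At the other end stood RPL7A, a ribosomal protein gene 378 bases after snR39B, with 792 and 376 FPKM in dbp2null, against 1381 and 1332 FPKM in wild type (log2 fold change -1.31, SE 0.68, adjusted p = 0.225, and 0.33 under quantile normalization). ASN1, an asparagine synthetase gene 717 bases after snR45, gave 225 and 162 FPKM in dbp2null, against 393 and 377 FPKM in wild type (-1.01, SE 0.41, adjusted p = 0.150). Both genes were lower in both dbp2null libraries without passing the test, and both were called lower without dbp2null replicate 1 (adjusted p = 0.0128 and 0.0179). TRS31, after the model gene snR13 and named for that reason, gave 41.2 and 40.4 FPKM in dbp2null, against 44.7 and 45.2 FPKM in wild type (-0.14, adjusted p = 0.586). CTO1, 194 bases after snR33, gave 17.1 and 17.7 FPKM in dbp2null, against 19.1 and 16.2 FPKM in wild type (-0.02). These values are sums over each gene and do not show where a transcript began.

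**Figure D4:**
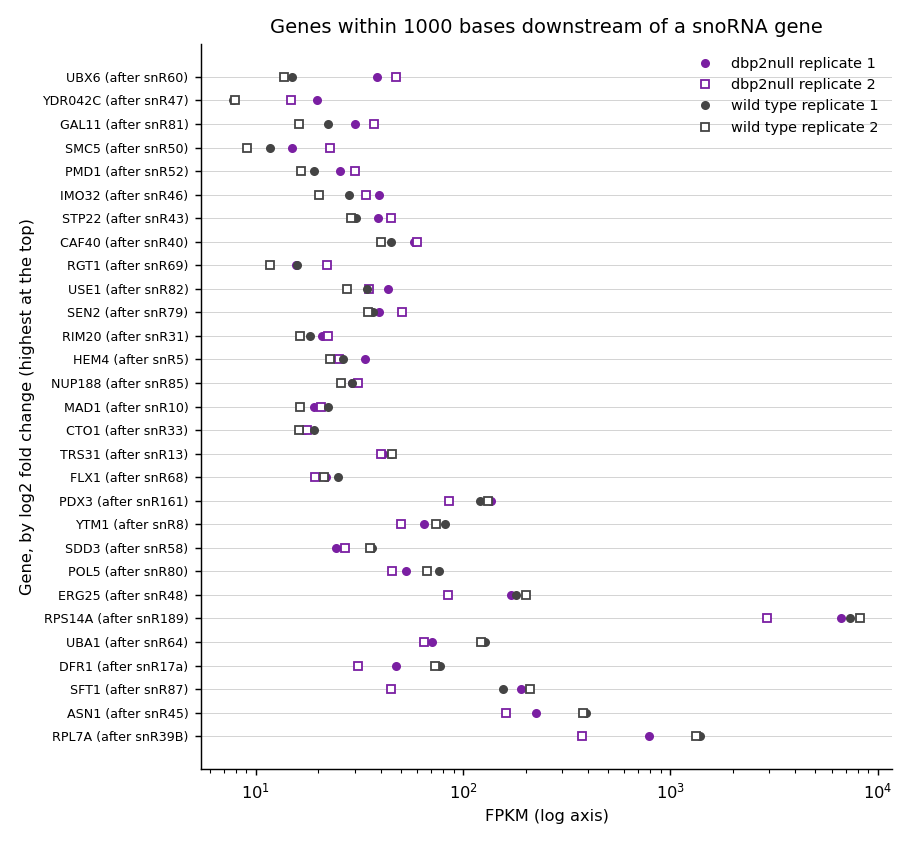
FPKM (log axis) of the 29 genes that follow a snoRNA gene within 1000 bases in the same orientation, in dbp2null replicates 1 and 2 (purple) and wild-type replicates 1 and 2 (grey), 1 point for each library. UBX6 at the top has 38.5 and 47.2 FPKM in dbp2null, against 14.9 and 13.7 FPKM in wild type. RPL7A at the bottom has 792 and 376 FPKM in dbp2null, against 1381 and 1332 FPKM in wild type.

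The protein partners were described as 7 lists with 37 genes in all. None was called, where 1.19% of tested features were, and 8 had an unadjusted p below 0.05, where 37.9% of tested features did. The 4 core proteins of C/D particles (Nop1, Nop56, Nop58, Snu13) and the 4 of H/ACA particles (Cbf5, Nhp2, Nop10, Gar1) had lower values in both dbp2null libraries than in both wild-type libraries in all 8 genes, an arrangement seen for 20.7% of tested features. Their median log2 fold changes were -1.26 and -1.05. Both medians stayed negative under each scaling tried, although 1 H/ACA protein gene turned positive under quantile normalization. SNU13, whose protein binds the C/D kink-turn, gave 688 and 158 FPKM in dbp2null, against 1086 and 1444 FPKM in wild type (-1.92, SE 0.88, adjusted p = 0.184). NOP10, a short gene for an H/ACA core protein, gave 15890 and 2269 FPKM in dbp2null, against 19587 and 16937 FPKM in wild type (-1.60, SE 1.56, adjusted p = 0.476). In both, the low value came mostly from dbp2null replicate 2, and without dbp2null replicate 1 both were called lower (adjusted p = 0.0163 and 0.0182), among 12 genes of the lists called lower, where 21.2% of tested features were.

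The other lists had medians closer to that of all tested features. Of the 9 assembly factors, 6 had positive fold changes (median 0.46), the highest being RSA1, whose protein brings Snu13 and the Nop proteins together, with 60.4 and 52.7 FPKM in dbp2null, against 32.1 and 24.4 FPKM in wild type (0.99, SE 0.22, adjusted p = 0.0652). LRP1, a cofactor of the nuclear exosome in 3′ trimming, had the highest fold change of the 7 maturation genes, with 54.3 and 55.3 FPKM in dbp2null, against 35.4 and 26.8 FPKM in wild type (0.81, SE 0.22, adjusted p = 0.0757). In both genes the groups stood apart, and neither passed the test. Of the maturation genes 4 had negative fold changes. The lowest, named after its values were seen, was LHP1, whose La-type protein binds the 3′ ends of new small RNAs, with 215 and 125 FPKM in dbp2null, against 393 and 368 FPKM in wild type (-1.21, SE 0.45, adjusted p = 0.128). SEN1, which the series' title names, gave 23.4 and 31.1 FPKM in dbp2null, against 23.2 and 17.1 FPKM in wild type (0.42, SE 0.25, adjusted p = 0.271). The 5 termination genes had a median of 0.38, the 4 promoter-binding factors 0.25, the 7 maturation genes -0.08 and the 4 proteins of U3 particles -0.02, beside 0.28 over all tested features. These small medians moved with the scaling: the U3 proteins gave 0.79 with protein-coding genes rescaled to one sum, the maturation genes 0.72, and the promoter-binding factors -0.09 with median centring.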

How the data were processed

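The deposited table holds FPKM, in which the authors scaled fragments by feature length and by library, per the file headers. It has 1 column for each of the 4 libraries and no counts. Per the submitters' processing notes, the tools were TopHat, Cufflinks, CASAVA and edgeR, and the build sacCer3, with roles and versions not given in the sources used here. After 3 blank rows were left out, 7126 features remained, of which 6169 were matched to the RefSeq annotation of R64 (all 51 snoRNAs among them). Whole-read steps were searched for in 500 low values a library. At best 13.8% to 15.1% of them lay within 0.05 of a whole multiple, where 10% would by chance, so reads were not recovered and depth stays unknown.

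Values were compared as log2(FPKM + 1), which understates fold changes of low genes. Features averaging 1 FPKM or more (6781) entered a limma fit (version 3.58.1, R 4.3.3) of dbp2null against wild type, with a mean-variance trend, no covariate, two-sided tests and Benjamini-Hochberg adjustment. The fit was tested on simulated data. Ratios of a single dbp2null library are to the mean of the wild-type log2 values. Positions, motifs and sequences are from RefSeq R64.

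The members, the lists and the tests were chosen with earlier results of these data known. Named snoRNAs are 10 with set roles, the 5 highest and 5 lowest fold changes, the 3 highest wild-type levels, and the 2 longest and 2 shortest. Named list and downstream genes are the 2 highest and 2 lowest fold changes, and DBP2. SEN1, LHP1, TRS31, CTO1, snR5, snR32, snR48, snR60 and snR68 are named outside that rule, having been picked after values were seen. Alternatives were quantile normalization, median centring, rescaling of protein-coding features to one sum, pseudocounts of 0.1 and 5, no filter (features above 0 in some library), a minimum mean of 10 FPKM, a fit without trend, a replicate block, leaving out each library, a downstream window of 500 bases and an adjusted p below 0.1.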

Additional observations from a re-analysis of the deposited data

How the results depend on the processing

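The count of 0 snoRNAs called held with either other pseudocount, either other filter, each scaling, no trend and an adjusted p below 0.1. Leaving out each library in turn gave 0 to 26 called members, 0 to 8 called downstream genes and 0 to 12 called list genes, the highest of each without dbp2null replicate 1. The pseudocount of 5 called 1 downstream gene, UBX6. Depth is unknown, and 2 libraries a genotype that disagree by several-fold limit every statement on levels.

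The median over all members was 0.84 with quantile normalization and ran from -2.04 to 0.49 with a library left out. For H/ACA it was 1.52 and ran from -0.99 to 0.74. For C/D it was -0.45 and ran from -3.77 to 0.15. Over all features the median was 0.28, and -0.06, -0.02 and 1.08 with median centring, quantile normalization and protein-coding rescaling. Signs turned as follows. With median centring, snR81 came to -0.24 and snR86 to -0.15. With quantile normalization, snR17a came to 1.62, snR17b 1.04, snR30 0.89, snR4 0.18, snR66 1.46, RPL7A 0.33 and YDR042C -0.09. With protein-coding rescaling, snR17a came to 0.62, snR17b 0.48, snR30 0.32 and snR66 0.74. With a library left out, the log2 fold change ran from -0.34 to 1.69 for snR10, -1.07 to 2.32 for snR161, -0.47 to 1.65 for snR33, -0.45 to 2.06 for snR34, -0.06 to 2.73 for snR80, -1.03 to 1.23 for snR81, -0.06 to 0.44 for snR86, -0.77 to 0.36 for snR17a, -0.72 to 0.04 for snR17b, -3.43 to 1.18 for snR39B, -2.95 to 0.37 for snR4 and -2.06 to 1.90 for snR66. The cause was not tested. Of 403 values of 31 named features over 13 alternatives, 356 kept their direction and side of the threshold.

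Libraries with the same replicate number did not deviate together (r = -0.115 over 6781 features, -0.167 over the 51 members). These values give no sign that the numbers pair them. With 2 libraries a genotype, whether same-numbered libraries shared a preparation was not tested. With the replicate block, 0 members, 0 downstream genes and 0 list genes were called, and the members' median was -0.62. With the numbers crossed, an alternative chosen after seeing the data, 1 member, 7 downstream genes and 5 list genes were called, where 36.2% of tested features were called higher and 3.14% lower.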
